A study of Mus musculus with 8 samples.

Results

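Expression of 10 genes of the NRF2 and glutathione antioxidant system was followed in lungs in which the inflammatory cytokine IL-1b had been switched on. The genes were Nqo1, Gclc, Gclm, Txnrd1, Srxn1, Gsr, Gpx2, Gpx3, Prdx1 and Sod3. They were chosen as pathway members by gene symbol, and the 10 genes held 12 of the 43681 probe sets on the array, with 3 probe sets for Txnrd1 and 1 for each other gene. In all, 27200 genes were tested. The study hybridised RNA of whole lung, from BALB/c mice with an IL-1b transgene, to 1-colour arrays. There were 3 arrays of the water group and 5 of the group treated with doxycycline (dox), the inducer of the transgene, which both groups carry. Lungs were taken after 7 days at about 12 weeks of age, per the labels, whereas column headings of another deposited table name 5 weeks. The transgene is lung-specific by the series title, and the promoter that drives it is not named in the labels. No dox group lacking the transgene was analysed here, so dox and IL-1b cannot be told apart. The labels do not say that each replicate is a separate animal, so the p-values below reflect spread between samples that may be technical.

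NRF2 (gene Nfe2l2) is a transcription factor that is held back by Keap1 and released by oxidants and electrophiles. It then binds antioxidant response elements near genes for glutathione synthesis, thioredoxin recycling and quinone reduction. Glutathione and thioredoxin supply the electrons with which peroxidases remove hydrogen peroxide and lipid peroxides, and extracellular superoxide dismutase guards the matrix of the lung. Several of these genes are widely used as readouts of NRF2 activity.

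Gclc, the catalytic subunit of the enzyme that starts glutathione synthesis, rose 1.52-fold, and was the single member past the threshold, an adjusted p of 0.05 over all 27200 genes in limma. Members past the threshold thus numbered 1 higher and 0 lower of 10, where 3.48% of all genes were called higher and 1.52% lower. Without the dimmest 25% of genes those shares were 5.11% and 2.69%, and all 10 members lay above the lower quartile of intensity on every array. Of the members 6 changed by less than 1.2-fold in either direction. The median log2 change was 0.11 over the members and -0.03 over all genes. For 4 members the unadjusted p in limma was under 0.05, namely Gclc, Gsr and Sod3, which were higher in dox, and Nqo1, which was lower; over all genes that share was 18.7%.

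**Figure D1:**
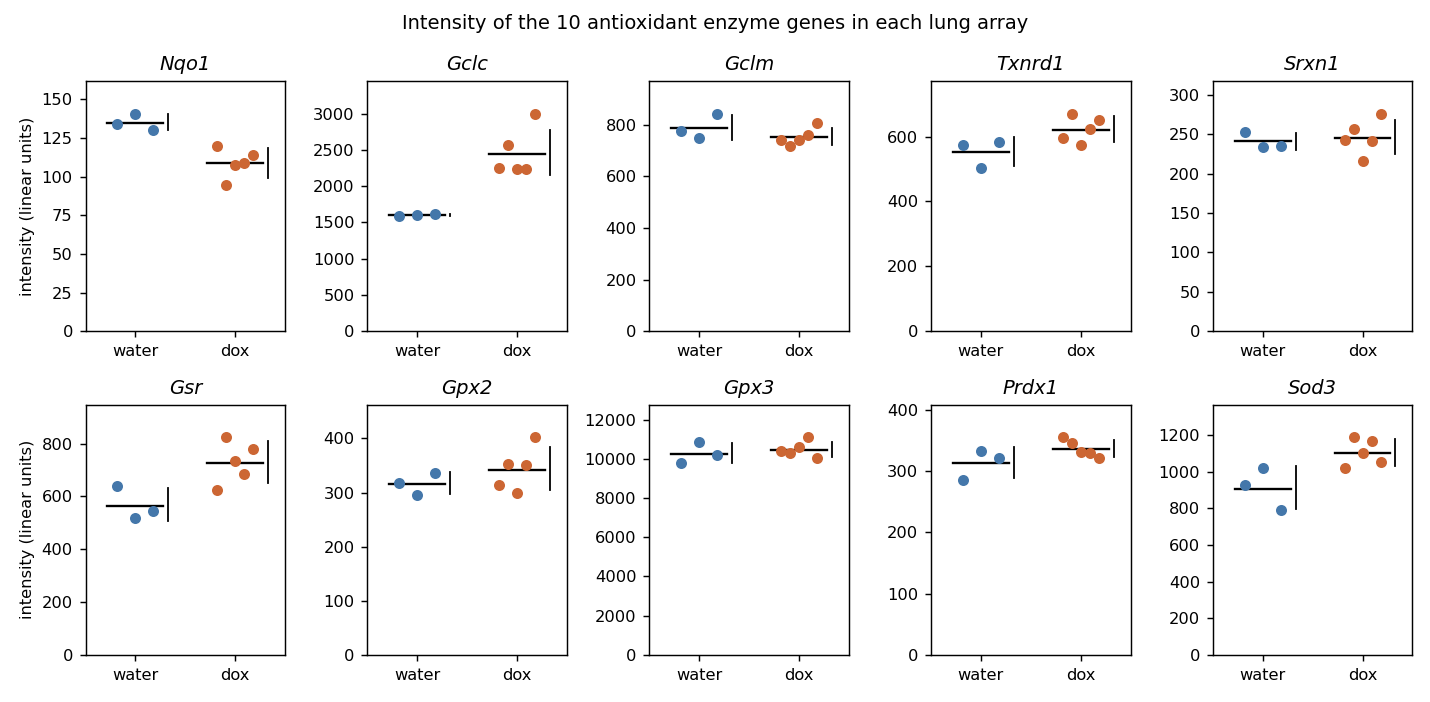
Intensity (linear units, axes from 0) of each of the 10 genes in the 3 water and 5 dox arrays. Points are arrays, horizontal lines are geometric means and vertical lines span 1 SD on the log2 scale to each side. Gclc is above and Nqo1 below the water arrays in all 5 dox arrays, and the other 8 genes overlap between the groups.

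Promoter sequence was taken for the members from RefSeq (build GRCm38.p6), and 7 of the 10 genes matched, with 9 windows of 250 bases before a transcription start. Gclc, Gsr and Sod3 had no entry. The core of the antioxidant response element was searched as TGACNNNGC on both strands. It was found in 3 windows, of Gclm, Txnrd1 (1 of its 3 windows) and Prdx1, and 10.2% of all 32851 promoter windows of this length hold it. The windows of Nqo1, Srxn1, Gpx2 and Gpx3 held no match to these letters. Neither sequence farther upstream nor a core that starts with TGAG was searched. The 3 windows with a match are printed because they carry the letters that NRF2 is known to read in genes that did not pass the test here. Capitals mark the match, which lies on the opposite strand in each, and a match is a description of letters and not a shown binding site. The windows are chr3:122245307-122245556 for Gclm, chr10:82858956-82859205 for Txnrd1 and chr4:116685349-116685598 for Prdx1, all on the plus strand.
Gclm: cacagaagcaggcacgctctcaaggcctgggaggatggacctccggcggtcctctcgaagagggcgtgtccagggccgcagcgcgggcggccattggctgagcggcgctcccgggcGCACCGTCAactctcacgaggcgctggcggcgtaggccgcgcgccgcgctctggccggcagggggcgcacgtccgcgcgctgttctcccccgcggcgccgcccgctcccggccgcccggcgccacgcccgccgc
Txnrd1: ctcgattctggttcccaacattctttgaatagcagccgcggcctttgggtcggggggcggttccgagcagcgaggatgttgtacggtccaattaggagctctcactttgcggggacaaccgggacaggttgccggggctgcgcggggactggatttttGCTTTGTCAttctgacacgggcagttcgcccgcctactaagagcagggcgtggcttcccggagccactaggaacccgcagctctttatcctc
Prdx1: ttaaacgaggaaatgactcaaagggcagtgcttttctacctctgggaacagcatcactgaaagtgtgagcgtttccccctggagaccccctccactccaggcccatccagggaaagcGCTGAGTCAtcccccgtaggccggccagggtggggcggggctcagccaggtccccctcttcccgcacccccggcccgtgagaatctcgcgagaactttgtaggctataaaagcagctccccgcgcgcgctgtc
The match lies 134 to 126 bases before the start in Gclm, 92 to 84 bases before it in Txnrd1 and 133 to 125 bases before it in Prdx1. In Prdx1 it overlaps an AP-1 site (TGANTCA, both strands, in 6.75% of all windows), and another AP-1 site begins 237 bases before the start. The Srxn1 window holds 2 AP-1 sites. The site 45 to 39 bases before the start is followed by GC. That stretch has a G where the searched core has its first C, and otherwise fits it. An NF-kB site, the element of the factor that IL-1 signalling activates, was found in the Prdx1 window alone of the 9 searched, and 3.9% of all windows hold one.

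Glutathione synthesis begins with glutamate-cysteine ligase, which joins the catalytic subunit Gclc to the modifier subunit Gclm. Gclc intensity was 1593, 1598 and 1621 in the water arrays and 2253, 2562, 2242.5, 2242 and 3000 in dox arrays 1 to 5. The water arrays were nearly identical and every dox array lay above them, with dox 5 highest. The log2 change was 0.61 ± 0.10 (SE; SD 0.013 in water, n = 3, and 0.18 in dox, n = 5; adjusted p = 0.00564 in limma), and its 95% interval ran from 0.39 to 0.83. No overlap with dox higher was seen for 7.25% of all genes. The call held in all 16 alternatives, with adjusted p from 0.00128 to 0.031. Its log2 change could not differ in those that altered only the prior, the genes kept or the use of probe sets.

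Gclm, which lowers the concentration of glutamate that the ligase needs, did not pass. Its intensity was 774, 747 and 842 in water and 739, 717, 740, 758 and 805 in dox. The dox arrays lay within or just under the range of the water arrays. The log2 change was -0.066 ± 0.067 SE (adjusted p = 0.665 in limma), with a 95% interval from -0.22 to 0.083. The change of Gclc exceeded that of Gclm by 0.67 on the log2 scale, and the difference between the subunits was larger in 5 of 5 dox arrays than in any water array. This pair was chosen after its values were seen, so the difference is a description with no test.

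The reductases that return oxidised carriers to use did not pass. Gsr, which uses NADPH to restore glutathione from its disulfide, had intensities of 640, 518 and 544 in water and 624, 824, 734, 683 and 778 in dox. Dox 1 lay below water 1, and the other 4 dox arrays lay above all water arrays. The log2 change was 0.36 ± 0.10 SE (1.28-fold, 95% interval of the log2 change from 0.13 to 0.59), with an adjusted p of 0.0774 in limma. Leaving out dox 1 took it past the threshold (0.0454), as did a trend and robust prior (0.0346), and the highest value over its alternatives was 0.307.

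Txnrd1, the cytosolic thioredoxin reductase and a selenoprotein, gave different values on its 3 probe sets. The brightest had intensities of 574, 503 and 585 in water and 595, 671, 573, 624 and 653 in dox, a log2 change of 0.17 ± 0.08 SE that missed the threshold (adjusted p = 0.278 in limma, 95% interval from -0.0036 to 0.34). The other probe sets had log2 changes of -0.045 and -0.087 when each was tested on its own (adjusted p = 0.902 and 0.897 in limma). Their spread was wider, with SDs in water of 0.33 and 0.54 against 0.12 for the brightest. The dimmest read 53.5, 81.3 and 78.2 in water and the remaining one 116, 207 and 234, so water 1 was the lowest water array on both. Among the dox arrays dox 5 was the lowest on both, at 61.4 and 122. The mean of the 3 probe sets had a log2 change of 0.013.

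**Figure D2:**
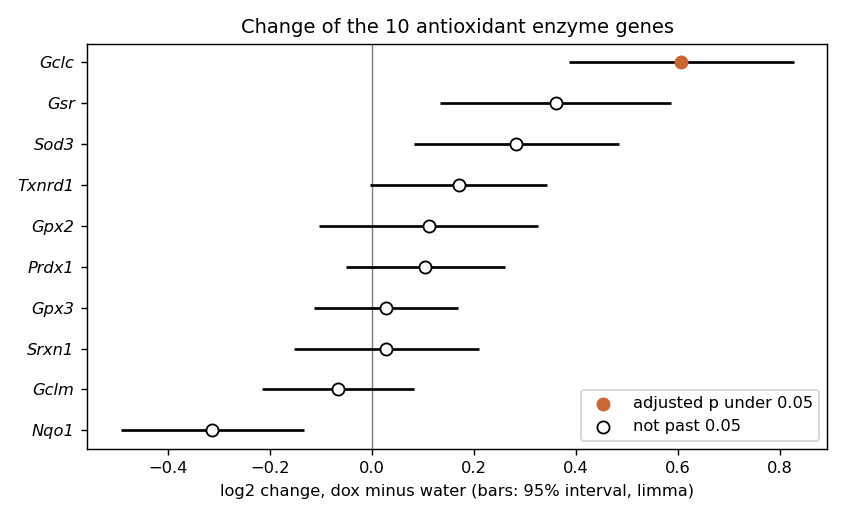
Log2 change (dox minus water) of the 10 genes with 95% intervals from limma, ordered by size. The filled point is Gclc, at 0.61. Open points did not pass an adjusted p of 0.05, and Nqo1, at -0.31, is lowest.

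Nqo1, the quinone reductase that is among the best known NRF2 targets, was lower in every dox array. Its intensity was 134, 141 and 130 in water and 120, 94.6, 108, 109 and 114 in dox. The groups did not overlap, which was so with dox lower for 6.96% of all genes. The log2 change was -0.31 ± 0.08 SE (0.805-fold, 95% interval of the log2 change from -0.49 to -0.13), and it narrowly missed the threshold (adjusted p = 0.0539 in limma). It passed without dox 1 (0.0432), with quantile normalization repeated (0.0463), with the dimmest 25% of genes left out (0.0415) and with the trend and robust prior (0.0429). Over its alternatives the adjusted p reached 0.209.

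Sod3, the extracellular superoxide dismutase that binds to matrix and vessel walls, was higher in most dox arrays. It read 925, 1018.5 and 792 in water and 1018, 1188, 1105, 1168 and 1051 in dox. The other 4 dox arrays lay above all water arrays and dox 1 was level with water 2. The log2 change of 0.28 ± 0.09 SE (1.22-fold, 95% interval of the log2 change from 0.083 to 0.48) did not pass (adjusted p = 0.114 in limma). It passed with the trend and robust prior alone (0.0498), and its adjusted p reached 0.312 without water 3.

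The peroxidases and their repair enzyme showed no change past the threshold. Gpx3, the secreted glutathione peroxidase of plasma and extracellular fluid, ran from 9804 to 10845 in water and from 10042 to 11097 in dox, with a log2 change of 0.028 ± 0.064 SE (adjusted p = 0.863 in limma, 95% interval from -0.11 to 0.17). Gpx2, a peroxidase of epithelia, ran from 296 to 337 in water and from 298 to 402 in dox, with dox 5 highest. Its log2 change was 0.11 ± 0.10 SE (adjusted p = 0.606 in limma), and its 95% interval of -0.10 to 0.33 was the wider of these 2. Prdx1, a thioredoxin-dependent peroxidase, ran from 286 to 333 in water and from 321 to 355 in dox (log2 change 0.10 ± 0.07 SE, adjusted p = 0.479 in limma). The suffix of its probe set is one usually given to probes shared by several transcripts, so its identity is less certain. Srxn1, which repairs overoxidised peroxiredoxins, ran from 234 to 253 in water and from 216 to 276 in dox (log2 change 0.028 ± 0.082 SE, adjusted p = 0.896 in limma). Its 95% interval was -0.15 to 0.21, and that of Prdx1 was -0.051 to 0.26.

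No dox array stood apart for all members. Dox 5 was the highest dox array for 4 members and the lowest for 2, dox 2 was highest for 3 and lowest for 2, and dox 3 was highest for 0 and lowest for 3.

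**Figure D3:**
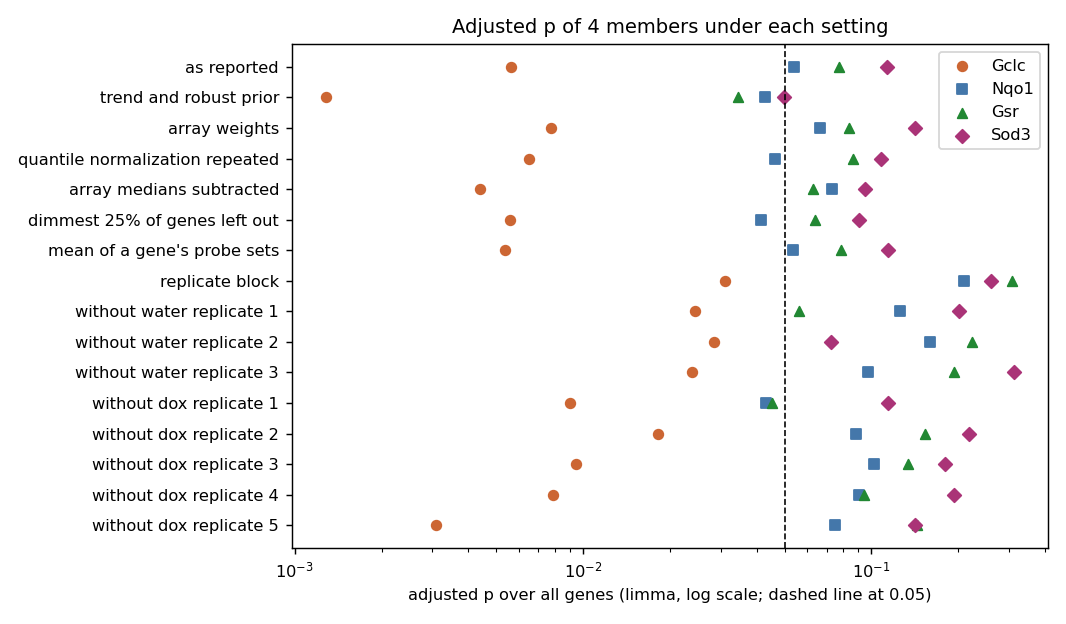
Adjusted p (log axis) of Gclc, Nqo1, Gsr and Sod3 in limma as reported and under each alternative, with a dashed line at 0.05. Gclc stays left of the line in all settings shown. Nqo1 crosses it in 4, Gsr in 2 and Sod3 in 1.

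A group of 7 lists of further antioxidant genes held 70 measured genes, of which 4 rose and 2 fell (5.71% and 2.86%, against 3.48% and 1.52% of all genes). With the dimmest 25% of genes left out, again 4 listed genes rose and 2 fell. The shares of all genes were then 5.11% and 2.69%, close to those of the lists. Under the trend and robust prior 8 of the 70 passed upward and 5 downward, as did 4.24% and 2.44% of all genes. The median log2 change of the 70 was -0.0023. An unadjusted p under 0.05 in limma was found for 23 of them, where 18.7% of all genes had one. Groups without overlap were seen for 15 genes with dox higher (21.4%, against 7.25% of all genes) and for 8 with dox lower (11.4%, against 6.96%).

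Among 9 regulators of NRF2 none passed in limma, and 3 had an unadjusted p under 0.05 (18.7% of all genes did). Nfe2l2, the gene of NRF2 itself, had the smallest p. It ran from 2137 to 2470 in water and from 2568 to 3024 in dox, without overlap, and its log2 change of 0.27 ± 0.08 SE did not pass (adjusted p = 0.0807 in limma). It passed with the trend and robust prior (0.0223), and its other probe set gave 0.17. Keap1, which targets NRF2 for degradation, had a log2 change of 0.025, and Bach1, a repressor at the same elements, one of 0.27 (adjusted p = 0.0985 in limma).

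Of 11 genes of glutathione synthesis and turnover, 1 rose, where 3.48% of all genes did. Slc7a11, which imports the cystine from which glutathione is made, read 19.6, 18.8 and 18.8 in water and 25.5, 35.6, 33.6, 27.7 and 34.4 in dox. Every dox array lay above the tight water arrays, whose values are a little above the lower quartiles of the arrays (13.9 to 14.5). The log2 change was 0.71 ± 0.11 SE (adjusted p = 0.00447 in limma), and a second probe set gave 0.11 and did not pass (0.522). Slc3a2, its partner chain, had a log2 change of 0.013, and Gss, the synthetase of the second step of glutathione synthesis, one of -0.10. Neither passed.

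Among 8 further peroxidases and selenoproteins, 2 rose, where 3.48% of all genes did. Sephs2, which makes the selenium donor for selenoproteins, rose by 0.33 ± 0.06 SE (from 320 to 402, adjusted p = 0.0151 in limma), and its call was lost without water 1 or 2 (up to 0.0571 with single arrays left out). Msrb1, a selenoprotein that reduces oxidised methionine, rose by 0.46 ± 0.10 SE (from 1335 to 1840.5, adjusted p = 0.03 in limma), a call that failed on leaving out water 2, water 3, dox 2, dox 3 or dox 5 (highest 0.114). The widely expressed peroxidases Gpx1 (0.11) and Gpx4 (-0.0098) did not pass.

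Of 4 genes for superoxide and peroxide removal, 1 rose, where 3.48% of all genes did. Mitochondrial Sod2, a known NF-kB target, read 337, 377 and 476 in water and 626, 610, 579, 584 and 745 in dox. The groups did not overlap, though the water arrays were spread. The log2 change was 0.67 ± 0.12 SE (1.59-fold, adjusted p = 0.00824 in limma), and it passed without each single array. Its second probe set gave 0.68 (adjusted p = 0.0052 with every probe set tested). Cytosolic Sod1 had a log2 change of -0.24 (adjusted p = 0.099 in limma) and catalase, Cat, one of -0.12 (adjusted p = 0.343).

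Among 13 thioredoxins and peroxiredoxins none passed in limma, and 2 had an unadjusted p under 0.05, where 18.7% of all genes did. The smallest p was that of Txnrd3, a thioredoxin reductase best known from testis, with a log2 change of -0.29 ± 0.08 SE (adjusted p = 0.0702 in limma, 0.0302 with the trend and robust prior). The Txn1 probe set was dim, at 23.3 to 25.3 in water and 21.2 to 24.2 in dox. Array medians were 40.8 to 41.9, so its missing call says little. None of 7 NADPH supply genes passed in limma either, and 2 had an unadjusted p under 0.05. In 4 of the 7 every dox array lay above every water array, as in 7.25% of all genes. These were G6pdx (0.21), which opens the pentose phosphate pathway, Pgd (0.14), Taldo1 (0.14) and Idh1 (0.13). A second probe set of G6pdx had a log2 change of -0.16.

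Of 18 further NRF2 targets, 2 fell (11.1%, against 1.52% of all genes, or 2.69% without the dimmest 25%) and 0 rose. An unadjusted p under 0.05 in limma was seen for 9, where 18.7% of all genes had one. Groups without overlap numbered 4 with dox higher and 4 with dox lower (22.2% each, against 7.25% and 6.96% of all genes). Gstm1, a glutathione transferase, read 3000, 2766 and 2968 in water and 2084, 1807, 1855, 2149 and 1907 in dox, and the groups were far apart. It fell by 0.57 on the log2 scale (SE 0.08, adjusted p = 0.00153 in limma). Cbr1, a carbonyl reductase, fell by 0.30 (SE 0.06, from 1012 to 824, adjusted p = 0.018 in limma), lost without water 1 or 3 (up to 0.0707 with single arrays left out). Haem oxygenase Hmox1, which responds to NRF2 and to Bach1, changed on the log2 scale by 0.38 ± 0.18 SE, short of the threshold (adjusted p = 0.282 in limma). Probe sets of the glutathione transferases can bind close relatives, so their identity is uncertain.

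**Figure D4:**
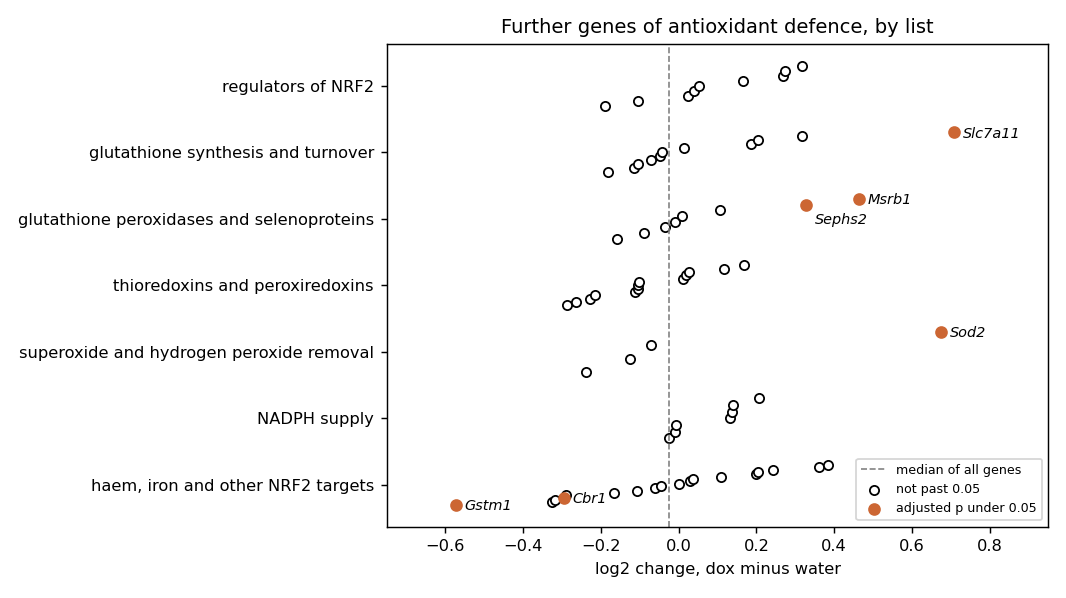
Log2 change (dox minus water) of 70 further genes in 7 lists, with a dashed line at the median of all genes (-0.03). Filled points passed an adjusted p of 0.05 in limma: Slc7a11, Sod2, Msrb1 and Sephs2 rose, and Gstm1 and Cbr1 fell.

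The arrays were those of lung, and macrophage and neutrophil markers were higher in dox. The surfactant gene Sftpc was at 25849 in water and 25683 in dox. The probe set of Il1b was higher in dox, at 673 against 227 (log2 change 1.57 ± 0.18 SE, adjusted p = 0.000525 in limma), and the labels do not say which species the transgene comes from. Of 10 macrophage and monocyte markers 7 rose, where 3.48% of all genes did. Their summed intensity ran from 25029 to 25589 in water and from 30001 to 33041 in dox. Of 10 neutrophil markers 7 rose, with sums of 2492 to 5079 in water and 5567 to 10863 in dox. Cycling cell markers rose in 4 of 5 cases, with sums of 342 to 362 and 640 to 803. These sums were higher beside Gclc, Slc7a11 and Sod2, and their part in those results was not tested. Sums of endothelial, smooth muscle and alveolar type 1 markers were lower in every dox array than in any water array, beside Nqo1, Gstm1 and Cbr1. The gap was narrow for smooth muscle (1077 to 1407 in water, 770 to 1076 in dox) and endothelium (18048 to 20445, 15473 to 17879). It was wider for alveolar type 1 markers (24456 to 24724 in water, 21045 to 22956 in dox). None of the markers of these 3 types passed in limma, and their part was not tested. Of 5 ciliated cell markers 1 fell, Tppp3 (-0.40), and the summed intensity of the other 4 overlapped, at 719 to 1354 in water and 831 to 1309 in dox. Club cell sums overlapped, at 34462 to 42244 in water and 35123 to 39476 in dox. Of the 5 markers 1, Muc5b, rose (1.06), a call lost without water 1 or 2 (highest adjusted p 0.0902 in limma). It was also lost with the trend and robust prior. Cyp2f2 (-0.25, adjusted p = 0.151 in limma) did not pass but was lower in every dox array than in any water array. Alveolar type 2 sums overlapped as well, at 49121 to 51477 and 50577 to 52452, and 2 of those 5 markers rose, Lamp3 (0.40) and Sftpa1 (0.37). With single arrays left out, Sftpa1 passed only without water 3 (highest adjusted p 0.137 in limma). Sftpb (-0.17, adjusted p = 0.154 in limma) was lower in every dox array than in any water array, as were 6.96% of all genes. Sums of this kind follow their brightest markers. Of 4 T cell, 5 B cell and 5 mast cell markers 0 passed in limma. Of these 1, a mast cell marker, had an unadjusted p under 0.05, where 18.7% of all genes did. Of 5 adipocyte markers 1 fell, Retn (-0.38), a call that failed on leaving out any single array but water 2 or dox 4 (highest adjusted p 0.153). Adipoq had the largest log2 change of the 5, -1.84, and did not pass (adjusted p = 0.0639 in limma). It read 187 to 262 in water, 220 in dox 4 and 29.4 to 63.0 in the other dox arrays. Adipocyte sums were 466 to 507 in water and 223 to 452 in dox. Cardiac muscle sums overlapped, at 3662 to 4736 and 1646 to 5409, and dox 4 was the highest array. In whole lung, fewer cells of a type and less RNA per cell cannot be told apart.

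**Figure D5:**
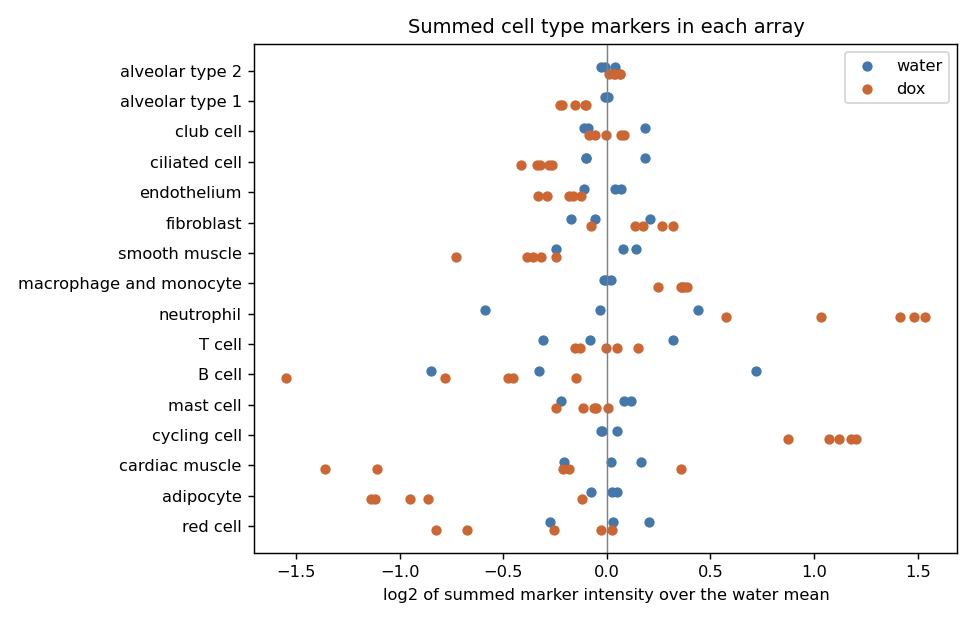
Log2 of the summed intensity of each cell type's markers in every array over the mean of the water arrays. Macrophage, neutrophil and cycling cell sums are higher in all 5 dox arrays, and club cell, T cell and fibroblast sums overlap between the groups.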

How the data were processed

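Lung RNA was hybridised as cRNA carrying biotin, per the labels. The authors deposited a linear intensity for each probe set in each array, made with RMA per the submitters' processing notes. RMA normally equalises the distributions of arrays and compresses bright signals. Array medians ran from 40.8 to 41.9, and the number of arrays limits the precision. Symbols, which are annotation of another kind, came from a deposited text table, per the file headers, whose 8 further columns match no sample label and were not used. Symbols were updated with RefSeq names (GRCm38.p6). The probe set with the highest mean stood for a gene.

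Intensities were taken to log2 here and tested, dox against water, with limma 3.58.1 in R 4.3.3 (lmFit, eBayes, 2-sided), with Benjamini-Hochberg adjustment over 27200 genes. Named genes were all members, listed genes past the threshold, the smallest p of a list without any, Il1b, and up to 2 markers per cell type, and others were chosen after their values were seen. Members, lists and tests were chosen with earlier results of these data known. Of 71 further genes listed, 70 were on the array, and of 90 markers in 16 lists, 87. The computation was tested on simulated data. Plots used matplotlib 3.10.9.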

Additional observations from a re-analysis of the deposited data

How the results depend on the processing

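Gclc, Gstm1 and Il1b kept their direction and their call in every alternative that was run. Over the 10 members, 162 single values were recomputed, of which 150 kept direction and side of the threshold, 7 came to pass it and 5 turned in sign, all of them small. Those 5 were the other Txnrd1 probe sets (-0.045 and -0.087), Srxn1 with the replicate block (-0.020) and without dox 5 (-0.014, against up to 0.074 without dox 3), and Gpx3 without water 1 (-0.0054, against up to 0.067 without water 2). The second probe sets of G6pdx (-0.16) and Cdk1 (-0.13) also turned. Not all of the 162 values could turn in sign. The prior and the dimmest 25% left out do not alter a log2 change. Nor do the settings on probe sets for a member with 1 probe set. Values that stayed short of the threshold count among the 150 as well. Members that rose numbered 3 with the trend and robust prior (Gclc, Gsr and Sod3) and 1 to 2 with each array left out. Members that fell numbered 1 with that prior, with quantile normalization repeated and with the dimmest 25% left out, each time Nqo1, and 0 to 1 with each array left out. Of the further antioxidant genes, 8 rose and 5 fell with that prior, under which calls over all genes came to 1816 against 1359, and 2 to 4 rose and 1 to 3 fell with each array left out. The rise count was 2 without water 2, and the fall count was 1 without water 1 or water 3. All genes past the threshold numbered 893 to 1290 with each array left out, lowest without water 2.

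No pairing by replicate number was seen: deviations of water and dox arrays with the same number correlated at 0.0072, 0.062 and -0.16 over genes. With so few arrays, these values cannot exclude an effect shared by arrays of the same number. The replicate block gives dox 4 and dox 5, which have no water array of their number, a term of their own. Its estimate of dox against water thus rests on arrays 1 to 3 of each group. In that smaller comparison 606 genes passed, with 1 rise and 1 fall among the further genes and 1 rise and 0 falls among the members. The further genes not past it under the block were Sod2 (adjusted p = 0.0704 in limma), Msrb1 (0.126), Sephs2 (0.175) and Cbr1 (0.184). The part of the block itself and that of the fewer arrays were not told apart, and causes of the other shifts were not tested. The 3 water arrays limit the precision, and whether a dim probe set exceeded background was not assessed.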
